A study of Mus musculus with 9 samples.

Results

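Heat shock protein genes were followed through the testis transcriptomes of Kpna6-deficient mice. The 10 genes were chosen by name from the 32035 genes to which the files could be assigned, and all 10 were found and passed the expression filter in each comparison. Of these, 3 are enriched in testis: Hspa2, Hspa1l and Hspa4l. Another 5 are known for induction by stress: Hspa1a, Hspa1b, Hsp90aa1, Hsph1 and Hspd1. The remaining 2, Hspa5 and Hspa8, are made by most cells at all times.

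RNAseq was performed on whole testes of male mice aged 15 weeks, with 3 samples from C57Bl6/N wild type (WT) animals, 3 from Kpna6 ΔIBB/ΔIBB (Importin α7 ΔIBB/ΔIBB) animals and 3 from Kpna6-/- (Importin α7-/-) animals, and both lines had been backcrossed to C57Bl6/N. Kpna6 encodes importin α7, an adaptor that carries proteins into the nucleus. In the ΔIBB line, loss of exon 2 leaves a shortened mRNA and a truncated protein that cannot bind importin β, and the males are infertile. In the Kpna6-/- line, a gene trap sits in intron 1. According to the study a testis-specific first exon downstream of the trap nevertheless lets germ cells make the full-length protein, while Sertoli cells lack it. The males of that line are fertile, although the study found their sperm count reduced. The replicates carry only a number in the labels, so that the P-values below measure the spread between these samples.

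Between 24859751 and 31484692 estimated counts per sample fell on genes. Kpna6 itself was measured at 98.3, 163 and 176 TPM (transcript abundance scaled to length and to the library) in the WT samples, and at 31.96, 34.2 and 34.8 TPM in the Kpna6 ΔIBB/ΔIBB samples. This was a log2 fold change of -1.79 ± 0.15 (SE) with an adjusted P of 1.94e-05. In the Kpna6-/- samples it stood at 134, 137 and 141 TPM, and the log2 fold change of -0.18 ± 0.14 did not pass the test (adjusted P = 0.586), so that the gene sum is no check of this label. The third Kpna6 ΔIBB/ΔIBB sample stood apart from the others in epididymal transcripts: Crisp1 was at 77.0 TPM there and at most 4.23 TPM in the other 8 samples. For the members called against WT, log2 fold changes without this sample are also given below. Most other values are given only with it.

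Heat shock proteins are chaperones that bind unfolded or partly folded proteins. HSP70 proteins hold and release their clients in a cycle driven by ATP, in which J-domain proteins start ATP hydrolysis and HSP110 proteins exchange the nucleotide. After heat or other stress, heat shock factor HSF1 binds heat shock elements and switches on the inducible genes, whereas stress of the endoplasmic reticulum (ER) acts through separate sensors and promoter elements. Male germ cells are unusual in making HSP70 and HSP110 proteins of their own as part of normal development: HSPA2 serves spermatocytes in meiosis, HSPA1L appears in spermatids, and HSPA4L is needed for normal sperm production.

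The HSP70 genes of the list are close relatives, and the sequence matters for what the counts can tell apart. The first codons are shown because they let the stress, testis and constitutive forms be compared base by base at the start of the ATP-binding domain. Each sequence is read 5′ to 3′ from the start codon in the GENCODE M21 transcripts (GRCm38), and capitals mark bases that differ from, or are absent in, Hspa1a.
Hspa1a: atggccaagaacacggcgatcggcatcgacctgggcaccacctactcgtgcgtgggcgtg
Hspa1b: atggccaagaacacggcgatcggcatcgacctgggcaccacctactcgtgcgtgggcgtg
Hspa1l: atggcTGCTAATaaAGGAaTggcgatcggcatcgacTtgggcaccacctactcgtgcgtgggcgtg
Hspa2: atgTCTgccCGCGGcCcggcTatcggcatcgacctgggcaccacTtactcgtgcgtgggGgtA
Hspa8: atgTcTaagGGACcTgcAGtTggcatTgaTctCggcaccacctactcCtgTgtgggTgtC

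Hspa1a and Hspa1b showed 0 differences in this stretch and 8 over 1923 aligned coding bases, an identity of 99.6%. Coding identity to Hspa1a was 83.3% for Hspa1l, 79.8% for Hspa2, 74.5% for Hspa8 and 62.6% for Hspa5. Of the 31-base words of a main transcript, 29.9% were unique to the gene for Hspa1a and 31.8% for Hspa1b, so their single values rest on a minority of the sequence and both genes are also given as a sum. For Hspa2, Hspa4l, Hsph1 and Hspa5, 99.9% or more of the words were unique, and for Hspa1l 85.4%. Hspa8, Hsp90aa1 and Hspd1 share most of their words with processed pseudogenes (unique share 22.4%, 37.1% and 47.0%), but the pseudogenes drew at most 21.1 counts on average in a group, against at least 1246 counts for any of these 3 genes in any sample.

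The genes lie in different places in the genome (GRCm38). Hspa1b (chr17:34956436-34959238), Hspa1a (chr17:34969190-34972156) and Hspa1l (chr17:34972703-34979285) are neighbours, and Hspa1a and Hspa1l are read away from each other from starts that are 546 bases apart. Hspa2 (chr12:76404176-76406938) and Hsp90aa1 (chr12:110690605-110702728) share a chromosome. The others are Hspa4l (chr3:40744495-40796103), Hsph1 (chr5:149614287-149636376), Hspd1 (chr1:55077835-55088243), Hspa5 (chr2:34771970-34777547) and Hspa8 (chr9:40800984-40805200). A further gene model, Gm20481, overlaps Hspa1a on the opposite strand and had 0 counts in each group.

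Promoter windows of 250 bases before the start in RefSeq (GRCm38.p6) were available for 8 of the 10 genes, all but Hsp90aa1 and Hspa8. They were searched on both strands for a heat shock element of 2 units (GAANNTTC or TTCNNGAA), for one of 3 units, in which GAA and TTC alternate with 2 free bases between them and which contains the shorter form, and for the ER stress element, CCAAT followed after 9 free bases by CCACG. The 2-unit element was present for Hspa1a, Hspa1b, Hsph1 and Hspd1 and was not found for Hspa2, Hspa1l, Hspa4l and Hspa5. The Hspa1a element lies in the interval between the starts of Hspa1a and Hspa1l, but beyond the 250 bases searched for Hspa1l. Of all genes in the RefSeq table, 14.6% held it. The 3-unit element was found for Hspd1 only, at the second of its 2 annotated starts (0.51% of all genes), and the ER stress element for Hspa5 only (0.13% of all genes). These windows are printed on the strand of the gene, with the element in capitals,, because they hold the matches for Hspa1a, Hspa1b, Hspd1 and Hspa5, while the windows of Hspa2, Hspa1l and Hspa4l and the first Hspd1 window held 0 matches.
Hspa1a, chr17:34972227-34972286, minus strand: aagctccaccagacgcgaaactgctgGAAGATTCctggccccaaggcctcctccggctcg
Hspa1b, chr17:34959309-34959368, minus strand: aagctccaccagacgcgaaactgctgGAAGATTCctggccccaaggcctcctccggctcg
Hspd1, chr1:55088035-55088094, minus strand: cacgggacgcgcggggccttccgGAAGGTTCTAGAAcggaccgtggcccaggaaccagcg
Hspa5, chr2:34772005-34772064, plus strand: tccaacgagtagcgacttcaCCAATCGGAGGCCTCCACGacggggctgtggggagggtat

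The windows of Hspa1a and Hspa1b were the same over the 60 bases shown, with the element beginning 104 bases before the start in both. In Hspa5, the gene of the ER chaperone BiP, the element began 65 bases before the start. A match is a run of letters and says nothing of binding in these testes.

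In WT testes, the testis and constitutive genes were abundant and the classic heat-induced pair was close to silent. In TPM, which correct for transcript length, the WT means ran from Hsp90aa1 (1139 ± 62.2, SD, n = 3) through Hspa4l (772 ± 5.27), Hspa2 (585 ± 43.5), Hspa1l (420.3 ± 14.9), Hspa5 (284 ± 18.9), Hspa8 (119.6 ± 4.02), Hsph1 (76.4 ± 8.55) and Hspd1 (31.2 ± 3.74) to Hspa1a (4.58 ± 0.46) and Hspa1b (1.92 ± 0.27). No neighbours in this order overlapped between their 3 samples in WT or in Kpna6-/- testes. In Kpna6 ΔIBB/ΔIBB testes the order was the same, but Hspa1l and Hspa5 overlapped. Hsp90aa1, a stress-induced gene elsewhere and one that meiotic germ cells need, therefore made up between 89.3% and 91.5% of the summed TPM of the 5 stress-induced genes in any sample.

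**Figure D1:**
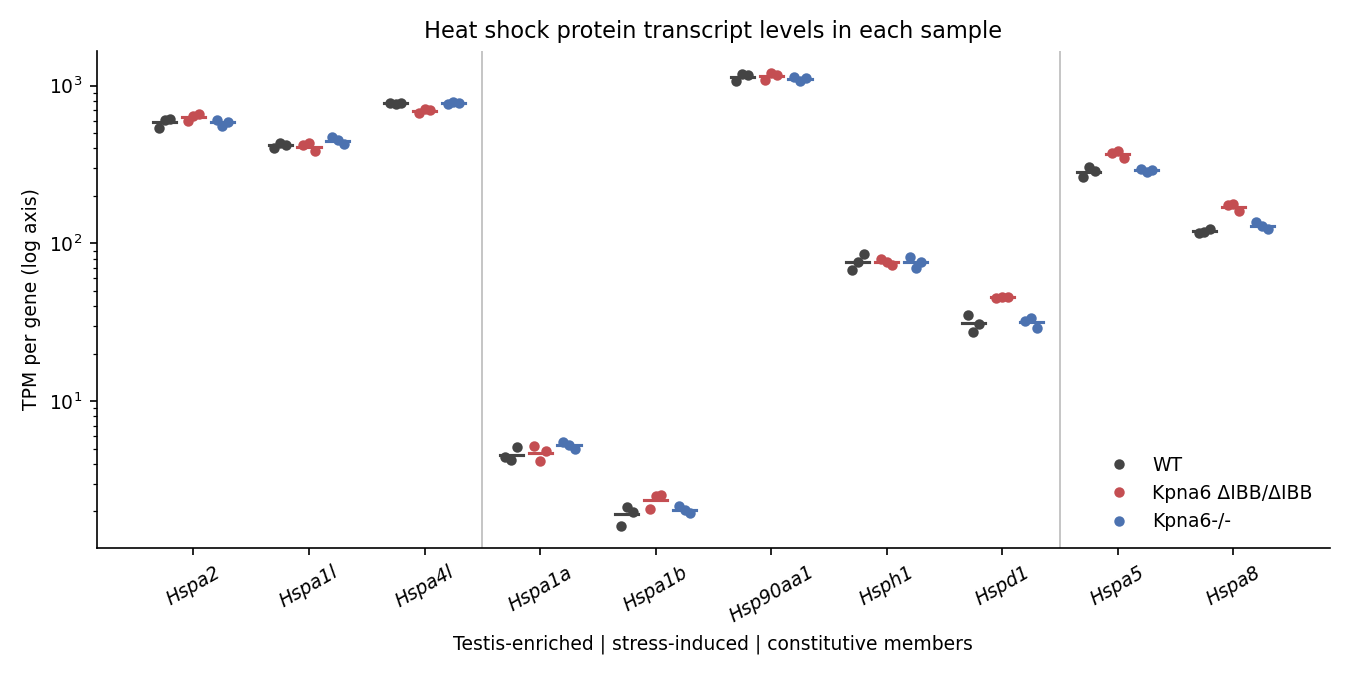
TPM per gene on a log axis for the 10 heat shock protein genes; points are the 3 samples of each group and lines the group means. Hspa5, Hspa8 and Hspd1 lie above WT in all 3 Kpna6 ΔIBB/ΔIBB samples and Hspa4l lies below, while Hspa1a and Hspa1b stay under 6 TPM in all 9 samples.

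Kpna6 ΔIBB/ΔIBB testes differed from WT in both directions. Of the 10 genes, 6 passed the test (edgeR, adjusted P below 0.05): Hspa8, Hspd1 and Hspa5 rose, and Hspa4l, Hspa1l and Hsp90aa1 fell. Among all 18797 genes tested, 36.6% were called, 17.7% higher and 18.9% lower. The TPM values of the groups did not overlap for 4 of the 10, against 47.8% of all genes, with Hspa8, Hspd1 and Hspa5 above WT (34.3% of all genes). The median log2 fold change of the 10 genes was -0.05 and that of all genes 0.01. With 10 genes that were listed by name, these shares describe the list and set it apart from nothing.

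The scaling of the libraries bears on the genes that fell. TPM and library-size scaling give each gene's share of a library, and the median log2 fold change of all genes between Kpna6 ΔIBB/ΔIBB and WT was then 0.11, whereas it was 0.01 after scaling by the trimmed mean of M-values (TMM), which the fold changes given here use. With library size only, 5413 genes were called higher and 2327 lower, in place of 3327 and 3547 with TMM, and 3 of the 10 members were called higher and 1 lower. The 4 that kept their call were Hspa8, Hspd1, Hspa5 and Hspa4l. Against Kpna6-/- testes the same change moved the split from 2524 higher and 3150 lower to 4929 and 2018.

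Among the testis-enriched genes, Hspa4l showed the clearest difference. Hspa4l, an HSP110 protein of spermatocytes and spermatids, was at 778, 768 and 771 TPM in WT, at 672, 709 and 700.1 TPM in Kpna6 ΔIBB/ΔIBB and at 764, 782 and 771 TPM in Kpna6-/- testes. The Kpna6 ΔIBB/ΔIBB samples thus lay below all 6 others. The log2 fold change was -0.19 ± 0.03 against WT (adjusted P = 0.000959) and -0.20 ± 0.03 against Kpna6-/- (adjusted P = 0.000388). Against WT it was -0.09 with library size only (adjusted P = 0.0226), and without the third Kpna6 ΔIBB/ΔIBB sample it was -0.19 (adjusted P = 0.00325).

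The transcripts of Hspa4l did not move together. The full-length coding transcript Hspa4l-201 was at 305, 307 and 310.4 TPM in WT and at 279, 295 and 281 TPM in Kpna6 ΔIBB/ΔIBB testes. A transcript of 670 bases annotated as a retained intron, Hspa4l-207, was at 299.5, 282 and 272 TPM in WT, at 215, 216 and 212 TPM in Kpna6 ΔIBB/ΔIBB and at 262, 288 and 280.3 TPM in Kpna6-/- testes. In contrast, the shorter coding transcript Hspa4l-203 was higher in Kpna6 ΔIBB/ΔIBB (57.3, 62.9 and 67.1 TPM) than in WT (48.7, 52.0 and 47.5 TPM). In WT, Hspa4l-207 held 36.8% of the gene's TPM but 9.45% of its estimated counts. Summed over its 5 coding transcripts, Hspa4l ranged from 470.5 to 489 TPM in WT and from 449 to 484 TPM in Kpna6 ΔIBB/ΔIBB testes, and these ranges overlapped. On coding transcripts alone, Hspa2 stood above Hspa4l in all 3 groups. The division of reads between transcripts was estimated by the authors' program and was not tested here.

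**Figure D2:**
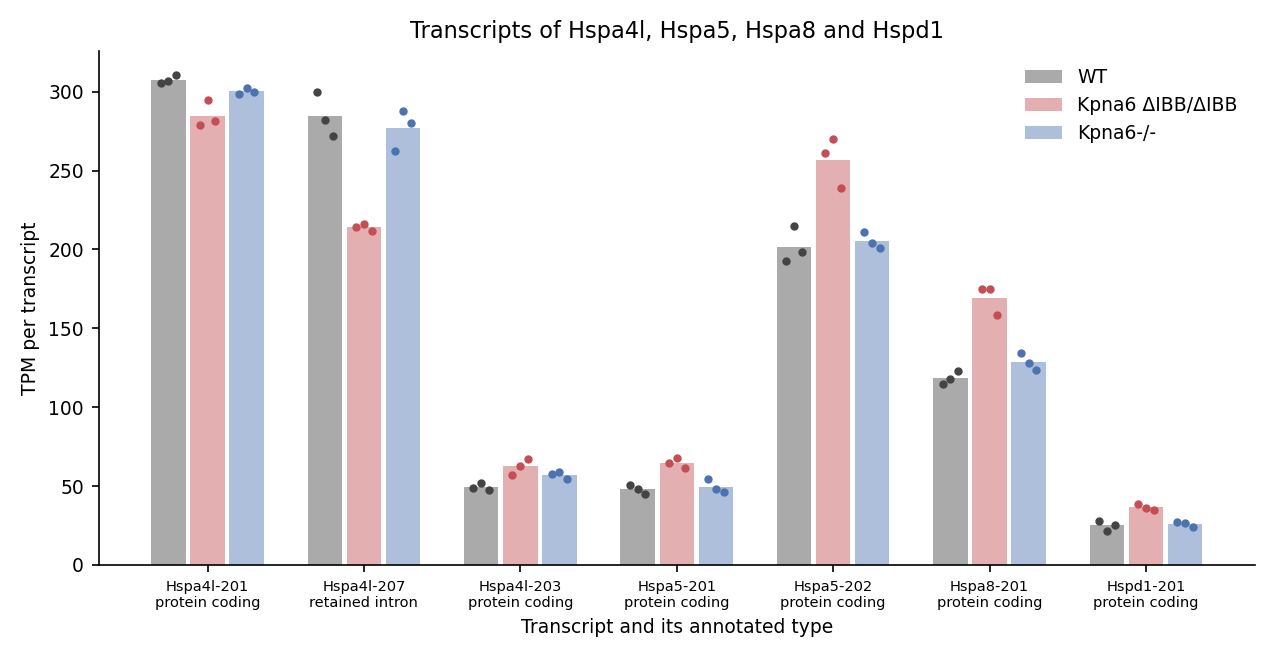
TPM per transcript for the main transcripts of Hspa4l, Hspa5, Hspa8 and Hspd1; bars are the means of 3 samples of each group and points the samples. Hspa4l-207 falls from 272 to 299.5 TPM in WT to 212 to 216 TPM in Kpna6 ΔIBB/ΔIBB testes, while both main transcripts of Hspa5 rise.

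Hspa1l, an HSP70 gene that is expressed mainly in spermatids, was called lower in Kpna6 ΔIBB/ΔIBB than in WT, but the size of this difference depended on the scaling. It was at 404, 434 and 423 TPM in WT, 417, 430.3 and 382 TPM in Kpna6 ΔIBB/ΔIBB and 469, 451 and 425 TPM in Kpna6-/- testes. As a share of the library, the WT and Kpna6 ΔIBB/ΔIBB samples overlapped. After TMM they did not, with 755, 815 and 768 CPM (counts scaled to the TMM library size) in WT and 708, 726 and 656 CPM in Kpna6 ΔIBB/ΔIBB. The log2 fold change was -0.16 ± 0.04 (adjusted P = 0.0158), -0.06 with library size only (adjusted P = 0.236) and -0.12 without the third Kpna6 ΔIBB/ΔIBB sample (adjusted P = 0.0579). Without the second WT sample the adjusted P was 0.0504. Against Kpna6-/- the difference was larger, with -0.27 ± 0.04 (adjusted P = 0.000576), and it was called with library size only (-0.17, adjusted P = 0.00685) but not by limma on log2(TPM + 1) (-0.13).

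Hspa2, the HSP70 gene of meiotic spermatocytes, did not pass the test in any comparison. Its levels were 535, 606 and 613 TPM in WT, 592, 643 and 656 TPM in Kpna6 ΔIBB/ΔIBB and 606, 558 and 591 TPM in Kpna6-/- testes, so that all 3 groups overlapped. The log2 fold change was -0.01 ± 0.05 in Kpna6 ΔIBB/ΔIBB (adjusted P = 0.856) and 0.01 ± 0.05 in Kpna6-/- (adjusted P = 0.952). With library size only, the first value was 0.08. The difference between Hspa2 and the other testis-enriched genes was not tested.

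The stress-induced genes of the cytosol showed no common rise. Hspa1a was at 4.43, 4.21 and 5.10 TPM in WT, 5.17, 4.15 and 4.83 TPM in Kpna6 ΔIBB/ΔIBB and 5.53, 5.29 and 4.97 TPM in Kpna6-/- testes. Hspa1b was at 1.63, 2.15 and 1.99 TPM, at 2.06, 2.498 and 2.54 TPM and at 2.15, 2.05 and 1.96 TPM in the same order. Each gene overlapped between WT and both lines. Their sum was 6.50 ± 0.53 TPM in WT, 7.08 ± 0.39 TPM in Kpna6 ΔIBB/ΔIBB and 7.32 ± 0.38 TPM in Kpna6-/- testes (SD, n = 3). The summed log2 fold change was 0.00 ± 0.09 in Kpna6 ΔIBB/ΔIBB (adjusted P = 0.993) and 0.18 ± 0.08 in Kpna6-/- (adjusted P = 0.298). These values rest on 270 to 368 counts per sample for Hspa1a and 103 to 158 for Hspa1b, far fewer than for the other members. Against WT, the standard error in Kpna6 ΔIBB/ΔIBB testes was 0.11 for Hspa1a and 0.15 for Hspa1b, and 0.03 to 0.08 for the other 8 genes.

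Of Hspa1a and Hspa1b, only Hspa1a was called between the lines, at -0.31 ± 0.10 in Kpna6 ΔIBB/ΔIBB against Kpna6-/- testes (adjusted P = 0.0369). Hspa1b had a log2 fold change of 0.07 ± 0.13 there, and the sum of both was -0.19 ± 0.08 (adjusted P = 0.087). The call was lost in 10 of 16 alternative analyses, among them library size only (-0.20, adjusted P = 0.135).

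Hsp90aa1, the inducible cytosolic HSP90, was at 1068, 1179 and 1171 TPM in WT, 1092, 1195 and 1171.5 TPM in Kpna6 ΔIBB/ΔIBB and 1130.1, 1076 and 1109 TPM in Kpna6-/- testes. The groups overlapped in TPM. After TMM, the 3 Kpna6 ΔIBB/ΔIBB samples (1839 to 1933 CPM) lay below the 3 WT samples (1994 to 2056 CPM), and the log2 fold change of -0.11 ± 0.03 passed the test (adjusted P = 0.0178). With library size only it was -0.01 (adjusted P = 0.821), and without the third Kpna6 ΔIBB/ΔIBB sample it was -0.10 (adjusted P = 0.0538). Leaving out the first Kpna6 ΔIBB/ΔIBB, the second WT or the third WT sample also ended the call, with log2 fold changes from -0.11 to -0.09.

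Hsph1, the inducible HSP110, was not called in any comparison. It was at 68.1, 75.9 and 85.2 TPM in WT, 79.1, 76.3 and 73.3 TPM in Kpna6 ΔIBB/ΔIBB and 82.2, 70.2 and 75.9 TPM in Kpna6-/- testes, and the groups overlapped. Its log2 fold changes were -0.14 ± 0.08 in Kpna6 ΔIBB/ΔIBB (adjusted P = 0.19) and -0.01 ± 0.07 in Kpna6-/- (adjusted P = 0.971). Without the first WT sample the first value was -0.22 and was called. Between the lines the log2 fold change was -0.15 ± 0.05 (adjusted P = 0.0572), and -0.18 without the second Kpna6-/- sample (adjusted P = 0.049). By limma on log2(TPM + 1) it was 0.00 against WT and 0.01 between the lines. A retained-intron transcript of 751 bases, Hsph1-208, held 50.3% of its TPM in WT, and the 7 coding transcripts together ranged from 22.4 to 25.5 TPM in WT and from 18.7 to 21.7 TPM in Kpna6 ΔIBB/ΔIBB testes.

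Hspd1 was the only member grouped here as stress-induced that rose. Hspa5, which holds the ER stress element and also rose, was grouped as constitutive. Hspd1 encodes the mitochondrial chaperonin HSP60. It was at 35.1, 27.6 and 30.97 TPM in WT, 44.9, 45.5 and 45.8 TPM in Kpna6 ΔIBB/ΔIBB and 32.3, 33.9 and 29.3 TPM in Kpna6-/- testes. Thus, the 3 Kpna6 ΔIBB/ΔIBB samples exceeded the 6 others. The log2 fold change was 0.42 ± 0.08 against WT (adjusted P = 0.00173) and 0.35 ± 0.05 against Kpna6-/- (adjusted P = 0.000366), and it was larger, 0.44 and 0.38, without the third Kpna6 ΔIBB/ΔIBB sample. The coding transcript Hspd1-201, with 94.5% of the counts in WT, went from 21.8 to 28.0 TPM in WT to 34.6 to 38.5 TPM in Kpna6 ΔIBB/ΔIBB testes. Hspe1, the gene of its partner HSP10, was singled out after its values were seen: it was at 41.9 ± 1.81 TPM in WT and 52.5 ± 6.11 TPM in Kpna6 ΔIBB/ΔIBB testes, and its log2 fold change of 0.21 ± 0.09 did not pass the test (adjusted P = 0.0912).

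Both constitutive genes rose in Kpna6 ΔIBB/ΔIBB testes. Hspa8, the cytosolic HSC70 that also strips clathrin from vesicles, was at 116, 118 and 124 TPM in WT, 176, 177 and 160.0 TPM in Kpna6 ΔIBB/ΔIBB and 136, 129 and 124 TPM in Kpna6-/- testes. The Kpna6 ΔIBB/ΔIBB samples lay above all others, and the log2 fold change was 0.39 ± 0.04 against WT (adjusted P = 6.55e-05) and 0.25 ± 0.04 against Kpna6-/- (adjusted P = 0.000739). One transcript, Hspa8-201, held 99.1% of its TPM in WT. Summing Hspa8 with its pseudogenes left the calls in place.

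Hspa5, the gene of the ER chaperone BiP, was at 265, 303 and 285 TPM in WT, 372, 385 and 347 TPM in Kpna6 ΔIBB/ΔIBB and 298, 283 and 293 TPM in Kpna6-/- testes. Again the 3 Kpna6 ΔIBB/ΔIBB samples lay above the 6 others. The log2 fold change was 0.24 ± 0.05 against WT (adjusted P = 0.00282) and 0.19 ± 0.04 against Kpna6-/- (adjusted P = 0.0036). Both main coding transcripts were higher, Hspa5-202 at 239 to 270.0 TPM against 192 to 215 TPM in WT, and Hspa5-201 at 61.2 to 67.6 TPM against 44.9 to 50.9 TPM. Without the third Kpna6 ΔIBB/ΔIBB sample, the log2 fold changes against WT were 0.43 for Hspa8 and 0.28 for Hspa5.

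Kpna6-/- testes showed 0 of the 10 genes called against WT by edgeR. An unadjusted P below 0.05 was found for 3 genes, Hspa8, Hspa1l and Hspa1a, and DESeq2 and limma also called 0. Among all 18681 genes tested, 1.6% were called (0.889% higher and 0.712% lower), so that 0 of 10 is close to the background. The largest differences were 0.13 ± 0.04 for Hspa8 (adjusted P = 0.156) and 0.21 ± 0.09 for Hspa1a (adjusted P = 0.285). Hspa8 was the only member with no overlap in TPM between the groups, and 17.8% of all genes had none (7.67% above WT). The median of the 10 log2 fold changes was 0.05, and that of all genes 0.00.

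In Kpna6 ΔIBB/ΔIBB against Kpna6-/- testes, 6 of the 10 genes were called and 30.3% of all 18752 genes (13.5% higher and 16.8% lower). Hspd1, Hspa8 and Hspa5 were higher, and Hspa4l, Hspa1l and Hspa1a lower. Of the 10 genes, 4 did not overlap in TPM (47% of all genes), 3 of them higher (36% of all genes), and the median log2 fold change was -0.05. The 3 comparisons share samples pairwise, so that their values stand side by side and are not independent of each other.

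**Figure D3:**
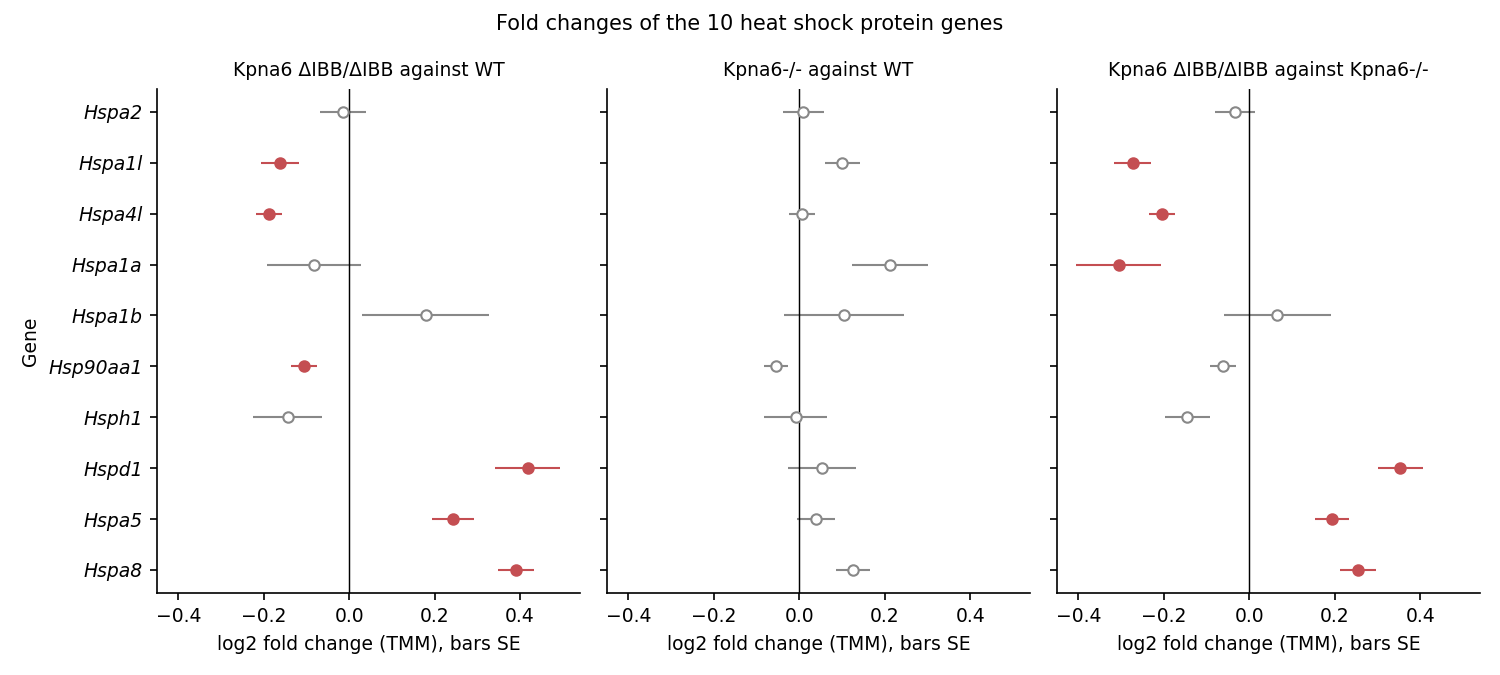
Log2 fold changes after TMM scaling for the 10 genes in the 3 comparisons; bars are standard errors from edgeR, filled red points passed an adjusted P of 0.05 and open grey points did not. Hspd1, Hspa5 and Hspa8 lie to the right in both panels with Kpna6 ΔIBB/ΔIBB testes, and no point is filled in the panel of Kpna6-/- against WT.

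The balance between the classes shifted towards the genes grouped as constitutive, Hspa5 and Hspa8, in Kpna6 ΔIBB/ΔIBB testes. These shares are taken within a sample and do not depend on the scaling between libraries. Of the summed TPM of the 10 genes, the testis-enriched genes held 52.4%, 51.4% and 51.5% in WT, 48.7%, 48.6% and 49.1% in Kpna6 ΔIBB/ΔIBB and 52.2%, 52.8% and 52.2% in Kpna6-/- testes. The constitutive genes held 11.6%, 12.0% and 11.7%, then 15.9%, 15.3% and 14.3%, then 12.3%, 12.1% and 12.2%. For both classes the share in the Kpna6 ΔIBB/ΔIBB samples lay outside the range of the 6 others. The summed TPM of the testis-enriched genes nevertheless overlapped, at 1717 to 1808 in WT and 1681 to 1783 in Kpna6 ΔIBB/ΔIBB testes, whereas that of the constitutive genes went from 381 to 421 in WT to 507 to 562. The stress-induced genes held 35.9% to 36.9% in WT, 35.4% to 36.6% in Kpna6 ΔIBB/ΔIBB and 35% to 35.7% in Kpna6-/- testes. The WT and Kpna6 ΔIBB/ΔIBB ranges overlapped, whereas the Kpna6-/- samples all lay below the WT samples. The constitutive share of the Kpna6-/- samples, at 12.1% to 12.3%, lay above that of the WT samples, at 11.6% to 12.0%. Their testis-enriched share overlapped with WT.

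**Figure D4:**
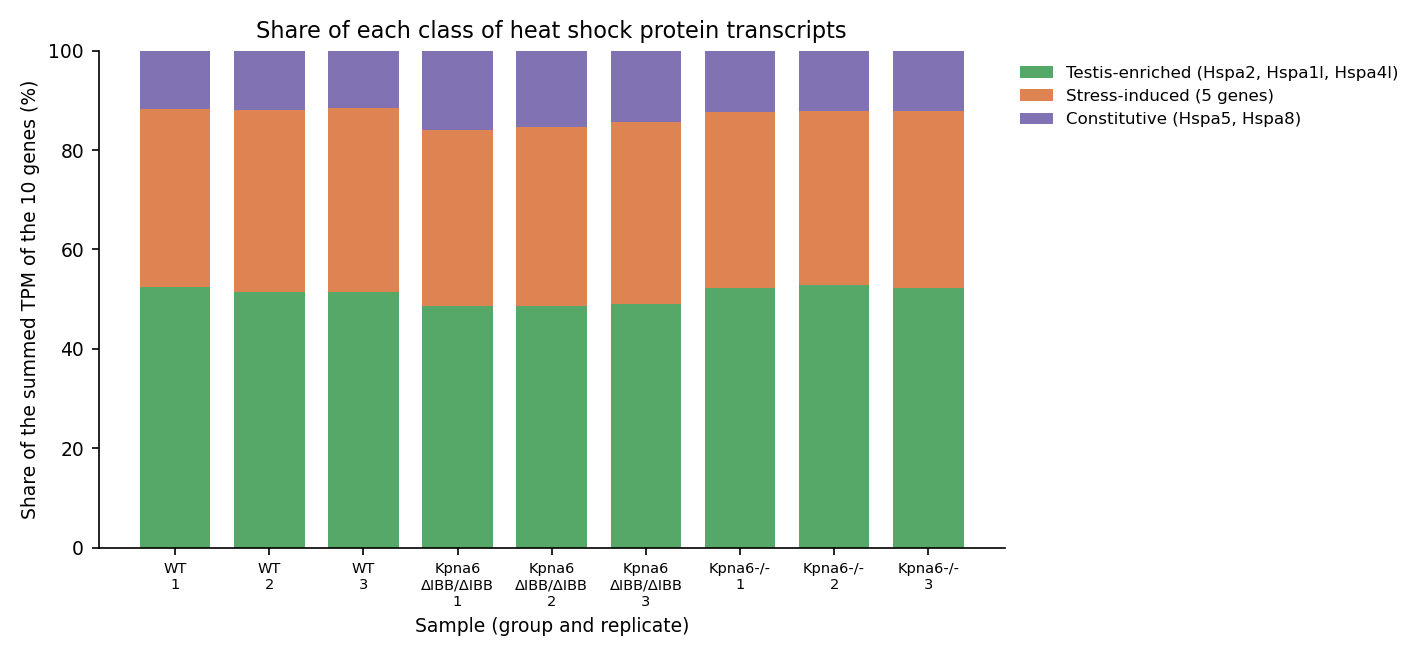
Share of the summed TPM of the 10 genes (percent, from 0 to 100) held by the testis-enriched, stress-induced and constitutive genes in each of the 9 samples. The constitutive share is 14.3% to 15.9% in the Kpna6 ΔIBB/ΔIBB samples and 11.6% to 12.3% in the others.

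Ratios of summed gene TPM within a sample were also taken for pairs of related genes, and 1 of 3 separated Kpna6 ΔIBB/ΔIBB from WT. Hspa2, the testis HSP70, stood at 4.6, 5.12 and 4.94 times the TPM of Hspa8 in WT, at 3.36, 3.63 and 4.10 times in Kpna6 ΔIBB/ΔIBB and at 4.47, 4.32 and 4.76 times in Kpna6-/- testes. The ratio was lower in every Kpna6 ΔIBB/ΔIBB sample than in any other sample. Hspa1l stood at 59.7 to 68.2 times the sum of Hspa1a and Hspa1b in WT, at 51.8 to 64.8 times in Kpna6 ΔIBB/ΔIBB and at 61.1 to 61.4 times in Kpna6-/- testes, with overlap between the groups. For the HSP110 pair, Hspa4l stood at 9.05 to 11.4 times Hsph1 in WT and at 8.49 to 9.55 times in Kpna6 ΔIBB/ΔIBB testes, which also overlapped. Both gene sums include retained-intron transcripts. On coding transcripts alone, mean levels of Hspa4l and Hsph1 were 479.1 and 23.49 TPM in WT. In Kpna6 ΔIBB/ΔIBB testes they were 470.1 and 19.8 TPM. The ratio of these means was larger than that of the gene sums and was higher in Kpna6 ΔIBB/ΔIBB than in WT. No P-value is given for these ratios, since the genes were listed with results of the data known.

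Markers of cell types moved with these groups. All 12 Sertoli cell markers listed were called higher in Kpna6 ΔIBB/ΔIBB than in WT, and their summed level was 1284 to 1454 TPM in WT, 2203 to 2613 TPM in Kpna6 ΔIBB/ΔIBB and 1652 to 1779 TPM in Kpna6-/- testes. These levels are shares of a library and not numbers of cells. The study counted fewer Sertoli cells per tubule in adult mice of both lines. Its quantitative PCR on testes found no significant difference for most genes tested, a set that included Wt1, Gata1, Rhox5, clusterin and Cldn11. All 10 round spermatid markers were called lower, with sums of 1991 to 2210 TPM in WT, 1596 to 1847 TPM in Kpna6 ΔIBB/ΔIBB and 1909 to 2065 TPM in Kpna6-/- testes. All 10 elongating spermatid markers were also lower, from 69120 to 79240 TPM in WT to 57440 to 65740 TPM in Kpna6 ΔIBB/ΔIBB testes, against 77550 to 78950 TPM in Kpna6-/- testes. With library size only, 12 Sertoli markers were higher and 9 of each spermatid list lower. Of 10 pachytene markers 3 were lower and 0 higher (1 and 1 with library size only), with sums of 5334 to 5822 TPM in WT and 5530 to 5592 TPM in Kpna6 ΔIBB/ΔIBB testes.

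Markers of other cells also differed from WT. Of 10 spermatogonium markers 4 were higher and 1 lower (6 and 1 with library size only), and of 7 leptotene to zygotene markers 2 were higher and 3 lower (3 and 1). Of 8 macrophage markers 4 were higher, with a median log2 fold change of 0.46; 8 were higher with library size only, and 1 or 2 were when any 1 of the Kpna6 ΔIBB/ΔIBB samples was left out. Of 8 peritubular and endothelial markers 3 were higher and 1 lower (4 and 1 with library size only), and of 8 Leydig cell markers 2 were higher. Of 5 blood markers 4 were lower and 1 higher, with a median of -0.91 (summed level 116.5 to 178 TPM in WT and 70.6 to 119 TPM in Kpna6 ΔIBB/ΔIBB). None of the spermatid, pachytene or Sertoli markers was at 0 in all samples. The summed level of each of these lists was at least 1284 TPM in every sample. Transcripts of testis were thus present in each sample, which does not exclude other tissue beside them. In these whole-testis values, fewer cells of a type and less RNA per cell cannot be told apart. By microscopy the study counted fewer pachytene spermatocytes and round spermatids per tubule in Kpna6 ΔIBB/ΔIBB testes. In sorted round spermatids of that line it measured less mRNA of transition proteins and protamines. The part of the marker shifts in the values of the 10 genes was not tested.

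Beyond the 10 genes, 119 further chaperone and stress genes were listed, of which 114 were tested. In Kpna6 ΔIBB/ΔIBB against WT testes 18 were higher and 31 lower, with a median log2 fold change of -0.02 against 0.01 for all genes. This split turned with the scaling, to 39 higher and 15 lower with library size only. Against Kpna6-/- testes 15 were higher and 28 lower (34 and 15 with library size only), and in Kpna6-/- against WT 2 were higher and 3 lower.

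Germ-cell chaperones other than Hspa2, Hspa1l and Hspa4l mostly fell. Of 11 listed, 9 were called lower and 1 higher relative to WT, with a median of -0.20, and with library size only 6 were lower and 1 higher. Pdilt, a disulfide isomerase-like protein of the spermatid ER, went from 112 ± 7.03 to 76.5 ± 8.14 TPM, a log2 fold change of -0.67 ± 0.07 (adjusted P = 6.56e-05). Dnajb13, a J-domain protein of the sperm axoneme, went from 279 ± 11.2 to 213 ± 15.9 TPM (-0.47 ± 0.05, adjusted P = 6.8e-05). Against Kpna6-/- testes Dnajb8 and Dnajc5b, testis J-domain genes, were lower by -0.53 ± 0.04 and -0.46 ± 0.04 (adjusted P = 2.81e-06 and 5.56e-06). The gene that rose, named here after its values were seen, was Fkbp6, a co-chaperone of meiotic cells with a log2 fold change of 0.36 ± 0.06. In Kpna6-/- against WT 0 of the 11 were called by edgeR, DESeq2 or limma.

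Genes known for induction by heat were divided. Of 14 listed beyond the members, 3 rose and 3 fell in Kpna6 ΔIBB/ΔIBB testes (8 and 1 with library size only). Hspb1, the small heat shock protein HSP27, rose most of the genes named, with 38.8, 33.3 and 34.1 TPM in WT, 96.9, 80.5 and 72.6 TPM in Kpna6 ΔIBB/ΔIBB and 44.2, 46.1 and 44.5 TPM in Kpna6-/- testes. The 3 groups did not overlap, and the log2 fold changes were 1.11 ± 0.10 (adjusted P = 2.93e-05) and 0.35 ± 0.07 (adjusted P = 0.0379) against WT. Hsp90ab1, known as the constitutive HSP90 but one of the 14 listed here, went from 146 ± 3.47 to 209.5 ± 4.69 TPM (0.43 ± 0.04, adjusted P = 2.49e-05). Bag3, a co-chaperone induced with HSP70, was lower in Kpna6-/- testes (-0.36 ± 0.08, adjusted P = 0.0436), a call lost with library size only (adjusted P = 0.0537).

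Genes of heat shock factors, and of proteins named for binding them, were lower or did not pass the test. The genes tested were the factors Hsf1, Hsf2 and Hsf5 and the binding proteins Hsbp1 and Hsf2bp. Of these 5, 1 was called lower and 0 higher (1 and 1 with library size only). Hsf2, a heat shock factor of spermatogenesis, was at 30.8, 28.7 and 29.7 TPM in WT, 19.9, 19.8 and 20.6 TPM in Kpna6 ΔIBB/ΔIBB and 24.7, 24.6 and 26.0 TPM in Kpna6-/- testes. The groups were separate, with log2 fold changes of -0.69 ± 0.05 (adjusted P = 1.39e-05) and -0.24 ± 0.05 (adjusted P = 0.0454), and the second call was lost with library size only (adjusted P = 0.0564). Hsf1, which drives the heat response and was singled out after its values were seen, had a log2 fold change of 0.12 ± 0.07 (adjusted P = 0.202) in Kpna6 ΔIBB/ΔIBB testes, and of 0.22 (adjusted P = 0.0225) with library size only.

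The ER genes that accompany Hspa5 rose in part. Of 18 listed, 6 rose and 3 fell relative to WT in Kpna6 ΔIBB/ΔIBB testes, with a median of 0.11 (12 and 2 with library size only). Pdia4, a disulfide isomerase of the ER, went from 25.5 ± 1.21 to 40.2 ± 1.12 TPM (0.53 ± 0.05, adjusted P = 4.62e-05), and Xbp1, a transcription factor of the unfolded protein response, from 8.62 ± 0.94 to 13.6 ± 0.51 TPM (0.58 ± 0.09, adjusted P = 0.000568). Herpud1, an ER stress gene of protein degradation, was lower against Kpna6-/- testes (-0.54 ± 0.04, adjusted P = 3.7e-06). In Kpna6-/- against WT testes Pdia4 alone was called among the ER genes (0.25 ± 0.05, adjusted P = 0.0353). Of the 5 chaperone genes called in that comparison, Hspb1, Pdia4, Hspb7, Bag3 and Hsf2, 0 were called with length-scaled TPM, by limma, without the third WT sample or without the first Kpna6-/- sample.

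The remaining families were mixed. Of 45 J-domain genes 2 rose and 18 fell in Kpna6 ΔIBB/ΔIBB testes, but 9 and 8 with library size only, and of 9 chaperonin genes 0 were higher and 3 lower, but 4 and 0. Among the J-domain genes Dnajc22 fell (-0.64 ± 0.15, adjusted P = 0.00761). Of 22 co-chaperones of HSP70 and HSP90 6 were higher and 3 lower, of 7 other HSP70 and HSP110 genes 1 was higher and 1 lower (2 and 0 with library size only), of 3 other HSP90 genes 2 were higher, and of 7 small heat shock proteins tested 2 were higher and 1 lower. Hspb7, a small heat shock protein best known from muscle, was at 14.3 ± 0.61 TPM in WT and 14.4 ± 1.09 TPM in Kpna6 ΔIBB/ΔIBB but 6.59 ± 2.89 TPM in Kpna6-/- testes (-1.10 ± 0.21 against WT, adjusted P = 0.0244).

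**Figure D5:**
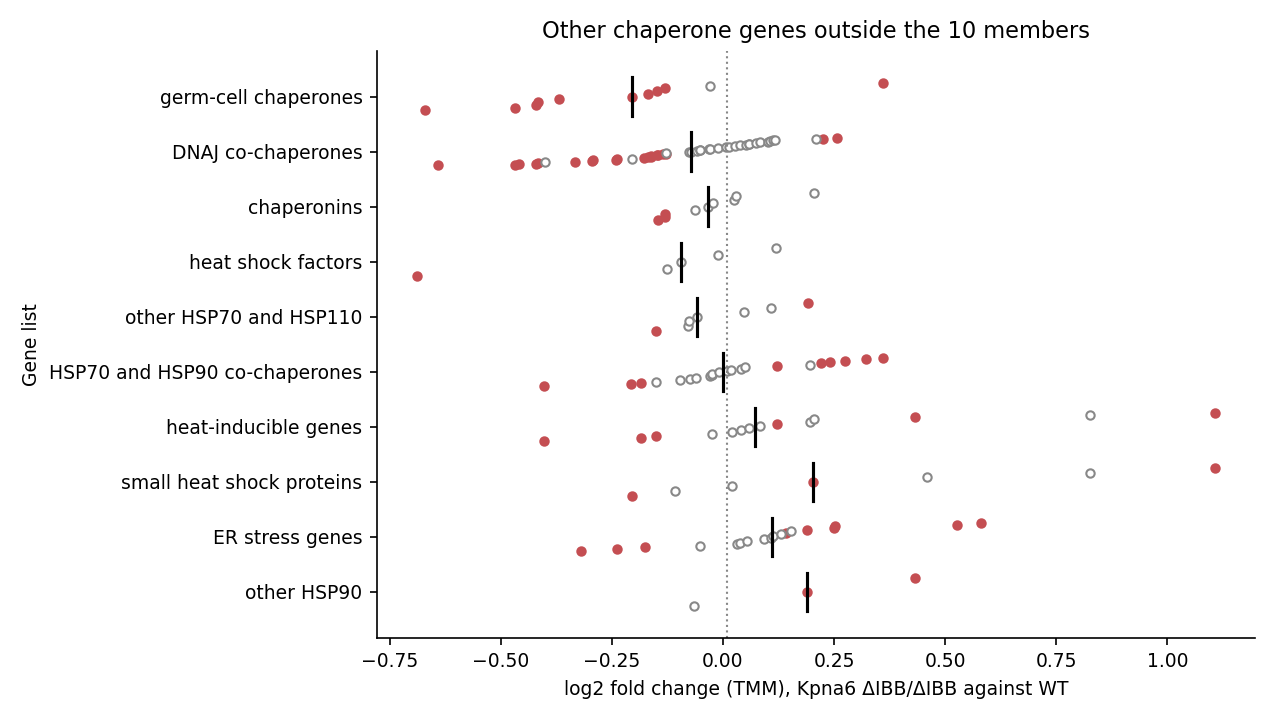
Log2 fold changes in Kpna6 ΔIBB/ΔIBB against WT testes for chaperone and stress genes outside the 10 members, by list; each point is a gene, drawn in each list that holds it and filled red where the adjusted P was below 0.05, black bars are list medians and the dotted line is the median of all genes. Germ-cell chaperones lie mostly to the left, with a median of -0.20, and Hspb1 lies farthest to the right at 1.11.

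Immediate early genes, which respond quickly to handling or stress, were higher in Kpna6 ΔIBB/ΔIBB testes while Hspa1a and Hspa1b were not. Of 8 tested, 6 were higher and 1 lower against WT, with summed levels of 24.0 to 30.6 TPM in WT, 38.2 to 49.1 TPM in Kpna6 ΔIBB/ΔIBB and 27.1 to 36.7 TPM in Kpna6-/- testes, and 0 were called in Kpna6-/- testes by edgeR, with 1 by DESeq2. Their part in the values of the 10 genes was not tested.

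The genes whose pattern over the 9 samples was nearest to a member were sought among 9184 genes with a mean of at least 10 TPM, by the root mean square difference of centred log2(TPM + 1) values. For Hspa2 these were Entpd4 (0.0283), Haus4 (0.0314) and Ywhae (0.0314). For Hspa1l they were Hmgb4 (0.0349), Psmf1 (0.037) and H1fnt (0.0372), and for the sum of Hspa1a and Hspa1b they were Trim11 (0.0496), Gm14891 (0.0496) and Scand1 (0.0511). The members' own root mean square spread was 0.0866, 0.0804 and 0.0911.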

How the data were processed

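RNA was measured in 9 whole testes, 3 per genotype. Per the labels and the methods of the study, poly(A) libraries were read as 150 bp pairs and assigned to mm10 transcripts with kallisto (0.45 in the submitters' processing notes); strand is not stated. The authors deposited per transcript an estimated count, not normalized between samples, and a TPM value, scaled to length and library. Both were summed per gene by GENCODE M21 identifiers (95301 of 96626 transcripts, 32035 genes; 99.5% of counts in each sample). Counts were rounded, filtered with filterByExpr, TMM-scaled and fitted by quasi-likelihood in edgeR 4.0.16 (R 4.3.3) on the 6 samples of each comparison, with Benjamini-Hochberg adjustment over all genes tested and a threshold of 0.05. The study used sleuth, which needs estimates not used here. With 3 samples a group, an exact permutation test cannot go below 0.1.

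Near-identical transcripts were sought with blastn 2.17.0+ (95% identity over 0.5 of the shorter transcript) and shared 31-base words counted in Python 3.11.15 (pandas 2.3.3, numpy 2.4.6, biopython 1.88); plots used matplotlib 3.10.9. Promoters are RefSeq windows. Named chaperones were up to 4 genes per direction and comparison with the largest change among those called, at 5 TPM or more in a group and without overlap; the 3 nearest patterns were named for Hspa2, Hspa1l and the Hspa1a and Hspa1b sum. Members, lists and tests were chosen with earlier results of these data known. Alternatives were DESeq2 1.42.0, no filter, a filter of 5 counts in a share of 0.47 of samples, all 9 samples in 1 fit, the replicate number as a block, length-scaled TPM counts, library size only, limma 3.58.1 on log2(TPM + 1) and log2(TPM + 0.1), near-identical genes summed, and each sample left out. On simulated data made from the Kpna6 ΔIBB/ΔIBB and WT libraries, 200 of 200 genes changed 2-fold were recovered among 18597, with 9 others called. Only well-covered genes were changed there, with the same fixed spread for every gene. The simulation therefore cannot tell how well differences as small as those of the members are found.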

Additional observations from a re-analysis of the deposited data

Results flagged for a closer look

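For the following members the log2 fold changes against WT had opposite signs in the lines and the lines differed in a direct test, although 0 of the values in Kpna6-/- passed the test against WT, nor did Hspa1a in Kpna6 ΔIBB/ΔIBB. Hspa1l was at -0.16 against WT in Kpna6 ΔIBB/ΔIBB and at 0.10 in Kpna6-/- testes, a difference of -0.273 on the log2 scale (edgeR, adjusted P = 0.000576). The values for Hspa4l were -0.19 and 0.01, a difference of -0.204 (adjusted P = 0.000388), and the Kpna6-/- value is near 0 (-0.001 by limma). For Hspa1a they were -0.08 and 0.21, a difference of -0.305 (adjusted P = 0.0369), which was lost when Hspa1a and Hspa1b were summed (-0.19, adjusted P = 0.087). Groups of 3 are too small for a check of single outlying samples.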

How the results depend on the processing

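Hspa8, Hspd1, Hspa5 and Hspa4l kept direction and call in all 16 alternatives in both comparisons with Kpna6 ΔIBB/ΔIBB testes, and 0 members were called in Kpna6-/- against WT in any. All 16 used gene sums, so none left out the retained-intron transcripts of Hspa4l. On coding transcripts alone, the TPM of Hspa4l in Kpna6 ΔIBB/ΔIBB testes overlapped with both other groups. Of 528 alternative values for members, 461 kept direction and side of the threshold, 23 lost a call, 3 gained one and 41 changed sign. Called genes in Kpna6-/- against WT numbered 299, but 477 with DESeq2, 623 without a filter, 73 with length-scaled TPM, 30 and 25 with limma at pseudocounts of 1 and 0.1, and 92 to 518 with a sample left out (518 without the first WT sample, 92 to 180 without any of the other 5). Called chaperone genes there were 5, but 3 with all 9 samples or library size only, 2 with the replicate block, 0 with length-scaled TPM and with limma at either pseudocount, and 0 to 3 with a sample left out; without a filter there were 7. Leaving out 1 sample gave 4 to 7 called members and 36 to 48 chaperone genes in Kpna6 ΔIBB/ΔIBB against WT, with 4 members without the second WT or the third Kpna6 ΔIBB/ΔIBB sample.

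Sign changes included Hsp90aa1, called at -0.106 in Kpna6 ΔIBB/ΔIBB against WT, and the uncalled values of Hsph1 (-0.144 against WT and -0.145 between the lines). In Kpna6 ΔIBB/ΔIBB against WT, library size only gave 0.083 for Hspa2, 0.016 for Hspa1a and 0.097 for the Hspa1a and Hspa1b sum, and limma gave 0.018 for Hsp90aa1, 0.003 for Hsph1 and 0.110 for Hspa2 at both pseudocounts, 0.034 and 0.040 for Hspa1a and 0.109 and 0.124 for the sum. Length-scaled TPM gave 0.009 for the sum, and the sum of near-identical genes, which takes the place of Hspa1b (0.179), was -0.001. In Kpna6-/- against WT, limma gave -0.001 for Hspa4l at both pseudocounts and length-scaled TPM gave 0.009 for Hsph1. In Kpna6 ΔIBB/ΔIBB against Kpna6-/-, library size only gave 0.039 for Hsp90aa1 and 0.066 for Hspa2, limma gave 0.060, 0.005 and 0.108 for Hsp90aa1, Hsph1 and Hspa2 at both pseudocounts, and the sum that takes the place of Hspa1b (0.066) was -0.193. With a sample left out, ranges that crossed 0 against WT were -0.071 to 0.030 for Hspa2, -0.148 to 0.010 for Hspa1a and -0.043 to 0.051 for the sum in Kpna6 ΔIBB/ΔIBB, and -0.001 to 0.017 for Hspa4l, -0.029 to 0.150 for Hspd1, -0.081 to 0.089 for Hsph1 and -0.044 to 0.046 for Hspa2 in Kpna6-/-. Between the lines it was -0.070 to 0.015 for Hspa2. The cause was not tested.

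Same-numbered samples showed at most weak correlations of their deviations from the group means (from -0.047 to 0.119). Taken over all genes tested in groups of 3, these correlations cannot exclude a pairing by replicate number. A replicate block gave 6, 0 and 7 called members and 6793, 229 and 6032 called genes in the 3 comparisons. Depth limits Hspa1a and Hspa1b most, with 103 to 368 counts per sample. With 3 samples a group, a missed threshold does not show that values were alike.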
